A study of Sus scrofa with 9 samples.

Results

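Phagocyte clearance receptors are the cell surface proteins by which macrophages bind dying cells, debris, lipoproteins and microbes, and the growth factor receptor on which macrophages depend. The members here were MERTK, AXL, MRC1, MARCO, MSR1, STAB1, STAB2, CSF1R, CD68 and SIGLEC1, and they were taken from the gene descriptions in the deposited table of spleen loci, with the locus of highest mean level where a name had several. Of these 10 names, 6 (MERTK, MRC1, MARCO, CSF1R, CD68 and SIGLEC1) had a locus that carried that name alone, among 28095 loci in all. Another 2, AXL and STAB1, were found only in loci that merge several genes, and CD68 was found in such a merged locus as well. MSR1 and STAB2 matched no locus and are not analysed here.

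The spleens came from Ningxiang pigs, an indigenous Chinese breed, taken on postnatal days 30, 90 and 210, and each age had 3 libraries. No treatment or mutation is labelled, the sex is not given, and the labels do not say whether the libraries of an age came from different pigs, so each p-value rests on the spread among libraries alone. Counted reads per library ran from 48.9 to 62.1 M. The comparisons ask which receptors differed between the ages, and all 3 share libraries with one another. In these whole spleen samples fewer cells of a type and less RNA per cell cannot be told apart.

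In the spleen, macrophages of the red pulp take up aged red blood cells and recycle their iron, and macrophages around the white pulp capture particles from the blood. Uptake of dying cells is known to begin when phosphatidylserine on the dying cell is bound directly by a receptor or through a bridging protein such as GAS6 or PROS1, which then engages the receptor kinases MERTK, AXL and TYRO3. Scavenger receptors such as MARCO and STAB1, the lectins MRC1 and SIGLEC1, and the lysosomal glycoprotein CD68 serve other forms of uptake and binding, while CSF1R passes on the survival signal of CSF1 and IL34.

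The 6 loci with a single name differed widely in level. Levels between genes are given in FPKM, reads per length of transcript and depth of library, as the authors deposited them. The lengths used for the assembled loci were not checked. The order of the loci and the levels of the FPKM ratios between genes given below depend on them. CSF1R was the highest of the 6 in each of the 9 libraries, with means of 187, 136 and 171 FPKM at days 30, 90 and 210. MARCO and SIGLEC1 followed. At day 30 their libraries overlapped, with 26.5 to 47.8 FPKM for MARCO and 27.1 to 53.3 FPKM for SIGLEC1, whereas MARCO stood above SIGLEC1 in all 3 libraries of day 90 and all 3 of day 210. In FPKM MERTK ranked below these 3 in all 9 libraries, with means of 5.94, 4.54 and 8.42 FPKM at days 30, 90 and 210. In library-scaled counts (CPM), which are not divided by length, MERTK averaged 86.7, 75.9 and 127 at these ages. MARCO averaged 66.2, 103 and 57.1 CPM, so on this scale the mean of MERTK was below that of MARCO at day 90 only. MRC1 averaged 1.15, 1.14 and 0.967 FPKM at the same ages, and its libraries overlapped those of the locus with the name CD68 alone at day 210 only.

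**Figure D1:**
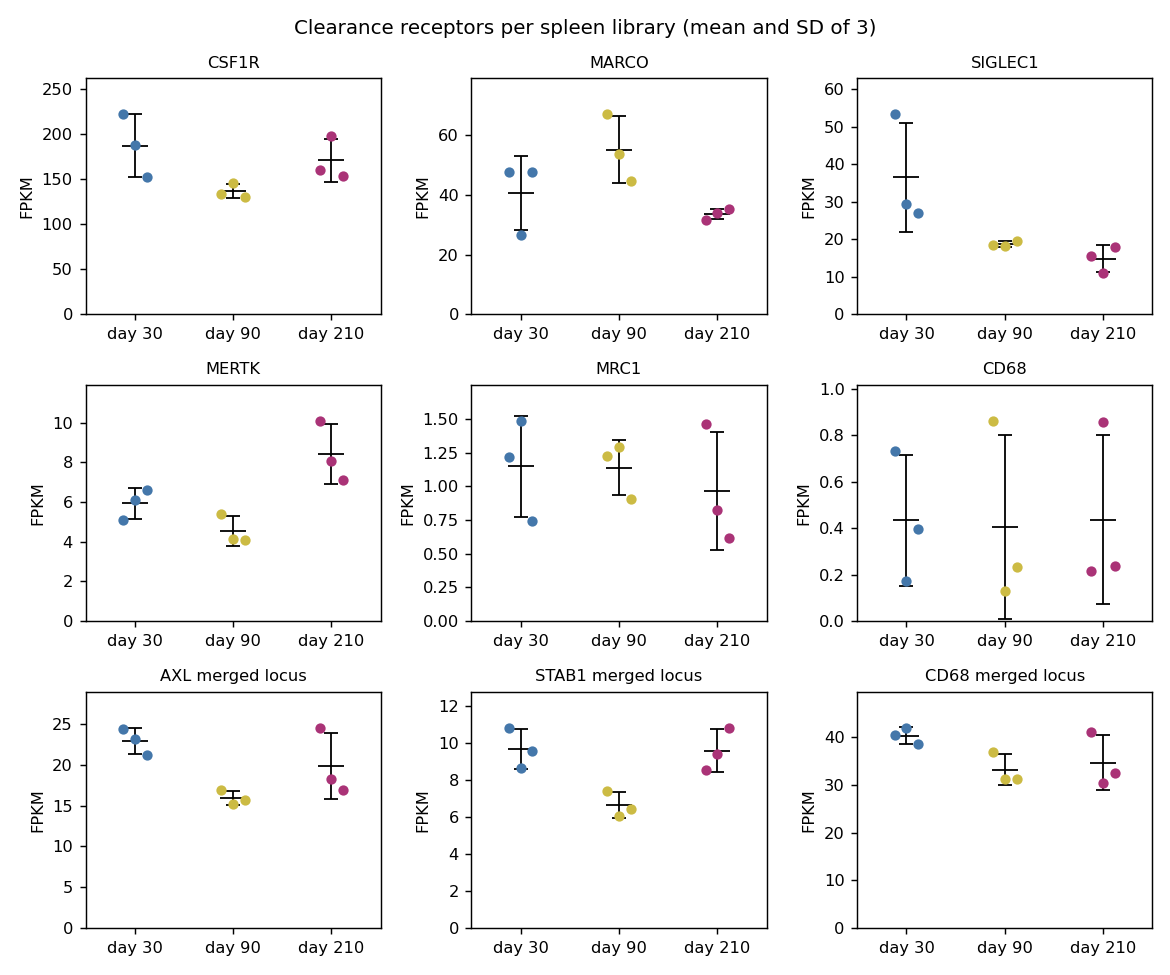
Deposited FPKM (vertical axes, linear from 0, a scale for each panel) of the 6 loci with a single name and of the 3 merged loci, by postnatal age (horizontal axes). Points are the 3 libraries of an age and bars the mean and SD, and the 3 points of MERTK at day 210 lie above the other 6 while the 3 points of SIGLEC1 at day 210 lie below those of day 30 and day 90.

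Across the ages the receptors did not move together. MERTK rose at day 210 against both earlier ages, by 1.67-fold against day 90 and 1.46-fold against day 30, and SIGLEC1 fell at day 210 to 0.42 of its level at day 30. MARCO had its highest values at day 90, and CSF1R and MRC1 had no change past the threshold. Changes were tested on the read counts with edgeR's quasi-likelihood test, and a locus was called at an adjusted p (Benjamini-Hochberg over 19264 tested loci) under 0.05. A log2 change of 1 is a doubling, and its SE stands beside it. The tested members were 5, since the locus with the name CD68 alone lay below the minimum mean of 1 FPKM.

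At day 90 against day 30 the call count of the tested members was 0 of 5, where 6.08% of all tested loci were called (2.06% higher and 4.02% lower). In that comparison 2 of the 5, MARCO and SIGLEC1, had an unadjusted p under 0.05, as did 4454 of all 19264 tested loci. DESeq2 called 1, MARCO, and 2424 of all loci. Run on log2(FPKM + 1), limma called 1, SIGLEC1, and 1720 of all loci. On that scale 1593 of the 1720 calls were lower, and the median log2 change of all loci was −0.15. At day 210 against day 90 MERTK was called higher, 1 of 5 members, where 0.535% of all loci were called (0.348% higher and 0.187% lower). At day 210 against day 30 MERTK was called higher and SIGLEC1 lower, 2 of 5 members, where 6.24% of all loci were called (2.55% higher and 3.7% lower). The median log2 change of the 5 members was −0.19 at day 90 against day 30, −0.41 at day 210 against day 90 and −0.21 at day 210 against day 30, beside 0.0030, −6.6e-05 and 0.0048 over all tested loci. With 5 members each median is the value of 1 gene, MERTK, MRC1 and MARCO in turn, not called in that comparison. Such medians do not show a shared fall, as members ran from −0.85 to 0.74 at day 210 against day 90.

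**Figure D2:**
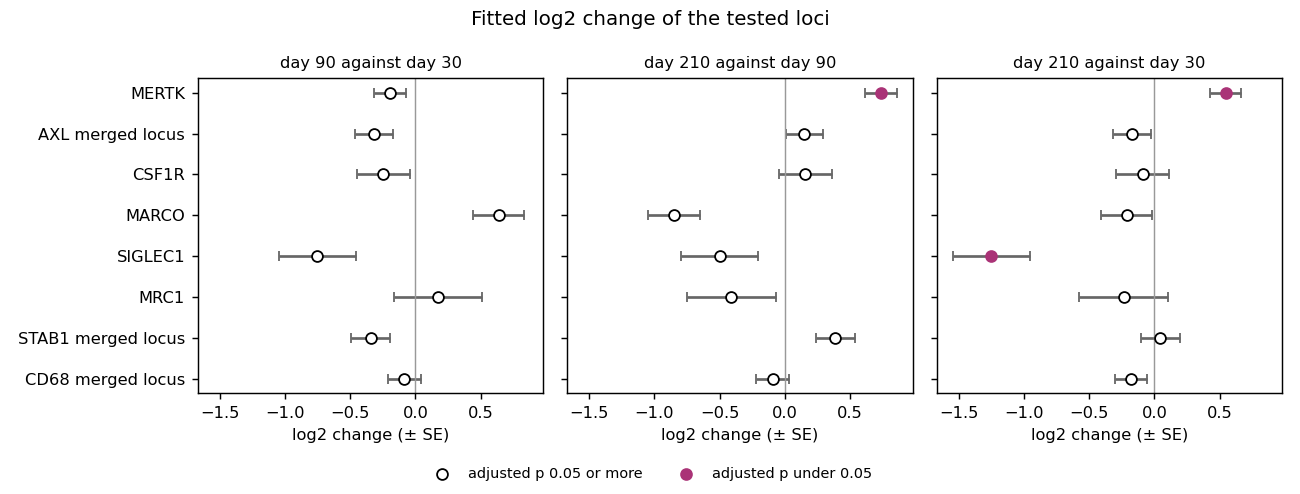
Fitted log2 change (horizontal axes, ± SE) of the 5 tested members and the 3 merged loci in each comparison of ages, with the later age over the earlier. Filled points had an adjusted p under 0.05, which were MERTK in both comparisons of day 210 and SIGLEC1 at day 210 against day 30.

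MERTK, a receptor tyrosine kinase that macrophages use to engulf dying cells, lies at chromosome 3, 84884306 to 85046811, on the minus strand (locus MSTRG.4567). Coordinates here are those of the deposited table. The submitters' processing notes name the mouse build mm8, which cannot be the build of these pig chromosomes, so their build is uncertain and no sequence was read from them. MERTK had 5.10, 6.11 and 6.61 FPKM at day 30, 5.41, 4.14 and 4.07 FPKM at day 90 and 10.1, 8.09 and 7.10 FPKM at day 210. The factor that links FPKM to counts differed between libraries, from 0.824 to 1.0 relative to the first day 30 library, so ages were compared on library-scaled counts (CPM) scaled by TMM factors, which adjust for library composition. On that scale MERTK had 75.6, 93.4 and 91.2 CPM at day 30, 76.1, 75.0 and 76.7 CPM at day 90 and 143, 122 and 114 CPM at day 210. Every library of day 210 exceeded every earlier one on both scales, and day 30 and day 90 overlapped.

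The log2 change of MERTK was 0.74 ± 0.12 (SE) at day 210 against day 90 (edgeR adjusted p = 0.0415) and 0.55 ± 0.12 at day 210 against day 30 (adjusted p = 0.0335). At day 90 against day 30 it was −0.19 ± 0.12 (adjusted p = 0.384). Both calls lay close to the threshold. That of day 210 against day 90 was kept without day 30 replicate 1 (adjusted p = 0.0435) and without day 210 replicate 3 (0.0362), and was lost without any one of the other 7 libraries, at adjusted p up to 0.152. That of day 210 against day 30 was kept only without day 210 replicate 3 (0.0334) and was lost without any one of the other 8, at adjusted p up to 0.106. The change stayed above 0 throughout, at 0.64 to 0.81 and at 0.45 to 0.61 when 1 library was left out. With limma on log2(FPKM + 1) neither call passed, at adjusted p of 0.0554 and 0.16.

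Neither bridging ligand of MERTK was called higher in any comparison. PROS1, the bridging protein S, had 33.0, 42.8 and 29.2 CPM at day 30, 23.7, 28.7 and 26.5 CPM at day 90 and 23.9, 22.7 and 17.2 CPM at day 210. Its values at day 210 were all below those of day 30, and it fell at day 210 against day 30 with a log2 change of −0.72 ± 0.18 (adjusted p = 0.048). That call was kept only without day 30 replicate 3 and was lost without any one of the other 8 libraries, at adjusted p up to 0.152. GAS6, the other bridging ligand, had 12.2, 9.80 and 11.3 CPM at day 30, 6.91, 8.63 and 7.94 CPM at day 90 and 9.34, 6.17 and 9.26 CPM at day 210. All libraries of both later ages lay below those of day 30, but edgeR called no comparison, with log2 changes of −0.51 ± 0.19 at day 90 against day 30 (adjusted p = 0.143) and −0.43 ± 0.19 at day 210 against day 30 (adjusted p = 0.205). At day 90 against day 30 limma on log2(FPKM + 1) called GAS6 lower (adjusted p = 0.044), and DESeq2 did not (0.0966). The limma scale had a median log2 change of −0.15 over all loci in this comparison, and 1593 of its 1720 calls were lower. TYRO3, the third receptor kinase of the family, averaged 2.47, 2.42 and 1.69 FPKM at days 30, 90 and 210. Its log2 change at day 210 against day 90 was −0.71 ± 0.23 (adjusted p = 0.214), where MERTK had 0.74.

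AXL, the remaining kinase of the family, could be read only in a locus that also holds CCDC97, at chromosome 6, 122637783 to 122720762. The pig RefSeq annotation (Sscrofa11.1) places CCDC97 close to AXL, and the counts of the merged locus cannot be split between the genes. The merged locus had 24.4, 23.2 and 21.2 FPKM at day 30, 17.0, 15.2 and 15.7 FPKM at day 90 and 24.5, 18.3 and 16.9 FPKM at day 210. On the CPM scale the ages overlapped, and its log2 changes were −0.32 ± 0.15 at day 90 against day 30 (adjusted p = 0.227), 0.15 ± 0.15 at day 210 against day 90 (adjusted p = 0.711) and −0.17 ± 0.15 at day 210 against day 30 (adjusted p = 0.523). In FPKM it stood at 3.93 ± 0.80, 3.55 ± 0.37 and 2.36 ± 0.09 times MERTK at days 30, 90 and 210 (SD, n = 3 each). The 3 ratios of day 210, 2.26 to 2.43, lay below all 6 of the earlier ages, 3.14 to 4.79. MERTK itself rose at day 210, which lowers this ratio at that age.

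**Figure D3:**
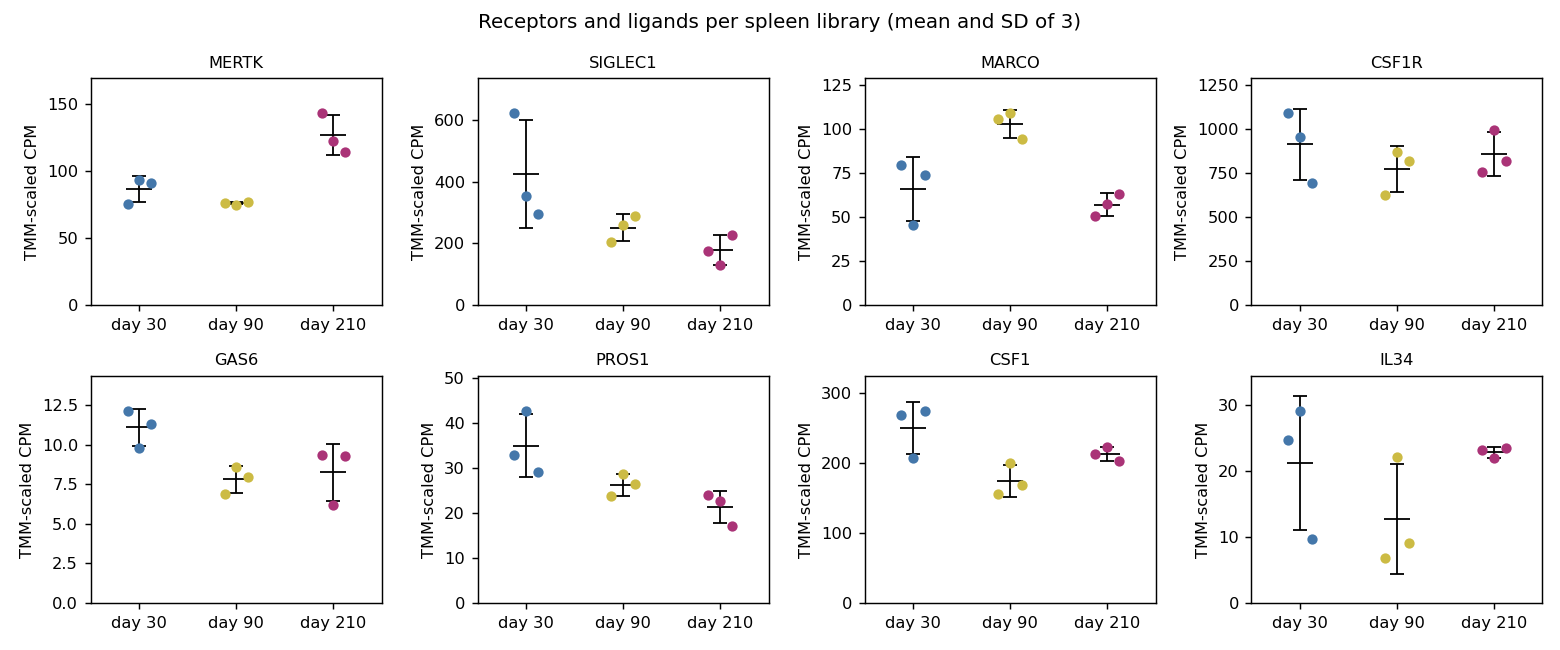
TMM-scaled CPM (vertical axes, linear from 0) of 4 receptors and of 4 ligands, GAS6 and PROS1 of MERTK and CSF1 and IL34 of CSF1R, by postnatal age (horizontal axes). Points are libraries and bars the mean and SD, and MERTK is highest at day 210 while PROS1 and GAS6 are highest on average at day 30.

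SIGLEC1, or sialoadhesin, is a lectin of macrophages that binds sialic acids, and it is known to be induced by interferon. Its locus (MSTRG.20099) lies at chromosome 17, 29544777 to 29591213, on the plus strand. It had 53.3, 29.3 and 27.1 FPKM at day 30, 18.4, 18.2 and 19.6 FPKM at day 90 and 15.6, 10.96 and 17.9 FPKM at day 210. On the count scale it had 621, 353 and 294 CPM at day 30, 204, 260 and 290 CPM at day 90 and 175, 131 and 227 CPM at day 210. Day 30 lay above both later ages in every library, by a narrow margin over day 90 on this scale, and day 90 and day 210 overlapped.

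The log2 change of SIGLEC1 was −1.25 ± 0.30 at day 210 against day 30 (edgeR adjusted p = 0.0421), −0.75 ± 0.30 at day 90 against day 30 (adjusted p = 0.167) and −0.50 ± 0.30 at day 210 against day 90 (adjusted p = 0.499). Without day 30 replicate 1, the library with the highest value, the change at day 210 against day 30 was −0.87 and the adjusted p 0.102. The call was kept without day 30 replicate 3 (0.0327) and without day 210 replicate 3 (0.0482), and was lost without any one of the other 7 libraries, at adjusted p up to 0.123.

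Values of an interferon-induced gene were set beside those of SIGLEC1. ISG15, a ubiquitin-like protein induced by interferon, was chosen after its values were seen. It had 60.4, 71.2 and 7.77 CPM at day 30, 4.61, 7.70 and 13.7 CPM at day 90 and 3.61, 2.89 and 4.13 CPM at day 210. Thus 2 of the 3 day 30 libraries stood far above the others for ISG15, and SIGLEC1 was highest in these same 2. ISG15 fell at day 210 against day 30 with a log2 change of −3.71 ± 0.74 (adjusted p = 0.0237), a call lost without day 30 replicate 1, without day 30 replicate 2 or without any one library of day 210, at adjusted p up to 0.0847. In day 30 replicate 3, where ISG15 was low, SIGLEC1 had 294 CPM, beside 204 to 290 CPM in the libraries of day 90 and 131 to 227 CPM in those of day 210. Whether interferon has a part in the fall of SIGLEC1 was not tested.

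MARCO, a scavenger receptor with a collagen-like stalk that binds bacteria and particles, lies at chromosome 15, 24818928 to 24857051, on the plus strand (MSTRG.18649). It had 47.8, 26.5 and 47.6 FPKM at day 30, 67.0, 53.8 and 44.6 FPKM at day 90 and 31.6, 33.8 and 35.1 FPKM at day 210. On the count scale it had 79.4, 45.4 and 73.8 CPM at day 30, 106, 109 and 94.2 CPM at day 90 and 50.5, 57.4 and 63.4 CPM at day 210. Every day 90 library lay above every library of the other ages in CPM, and days 30 and 210 overlapped. In FPKM days 30 and 90 overlapped as well.

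The log2 change of MARCO was 0.64 ± 0.20 at day 90 against day 30 (edgeR adjusted p = 0.0893) and −0.85 ± 0.20 at day 210 against day 90 (adjusted p = 0.0987), and neither was called. At day 210 against day 30 it was −0.21 ± 0.20 (adjusted p = 0.556). DESeq2 called both of the first changes, at adjusted p of 0.0267 and 0.00381, while limma called neither. Without day 30 replicate 2, the lowest library of its age, the adjusted p at day 210 against day 90 was 0.0426.

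CSF1R, the receptor for the macrophage growth factors CSF1 and IL34, lies at chromosome 2, 992161 to 1020611, on the plus strand (MSTRG.1719). It had 222, 188 and 152 FPKM at day 30, 133, 145 and 131 FPKM at day 90 and 160, 198 and 154 FPKM at day 210. Day 90 held the lowest values in FPKM, but the 3 ages overlapped in CPM. Its log2 changes were −0.25 ± 0.20 at day 90 against day 30 (adjusted p = 0.524), 0.16 ± 0.20 at day 210 against day 90 (adjusted p = 0.793) and −0.09 ± 0.20 at day 210 against day 30 (adjusted p = 0.831).

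CSF1 had 268, 207 and 274 CPM at day 30, 156, 200 and 168 CPM at day 90 and 212, 223 and 203 CPM at day 210. Its day 90 libraries lay below all the others. The log2 change of CSF1 at day 90 against day 30 was −0.52 ± 0.14 (edgeR adjusted p = 0.0606), short of the threshold. DESeq2 called it (adjusted p = 0.0145), and so did limma (0.0361), on whose FPKM scale the median of all loci was −0.15. IL34 averaged 3.63, 1.86 and 3.86 FPKM at days 30, 90 and 210, and its lowest and highest CPM within day 90 were 6.85 and 22.2. No comparison of IL34 passed by edgeR, with adjusted p of 0.391, 0.467 and 0.914.

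MRC1, the mannose receptor, lies at chromosome 10, 60003391 to 60121511, on the minus strand (MSTRG.13826). It had 1.22, 1.48 and 0.742 FPKM at day 30, 1.22, 1.29 and 0.903 FPKM at day 90 and 1.46, 0.825 and 0.615 FPKM at day 210. The ages overlapped throughout. Its log2 changes of 0.18 ± 0.34, −0.41 ± 0.34 and −0.24 ± 0.34 at day 90 against day 30, day 210 against day 90 and day 210 against day 30 had adjusted p of 0.805, 0.656 and 0.719. The SE of MRC1 was the largest of the tested members, at counts of 232 to 484 per day 30 library.

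STAB1, a scavenger receptor of macrophages and sinus endothelium, was read in a locus with NISCH, its neighbour in the RefSeq annotation, at chromosome 13, 12369773 to 12433206. The merged locus had 10.8, 8.69 and 9.58 FPKM at day 30, 7.42, 6.05 and 6.45 FPKM at day 90 and 8.54, 9.44 and 10.8 FPKM at day 210. Day 90 was below both other ages in FPKM, and in CPM below day 30 but not below day 210. The log2 changes were −0.34 ± 0.15 at day 90 against day 30 (adjusted p = 0.207), 0.39 ± 0.15 at day 210 against day 90 (adjusted p = 0.283) and 0.04 ± 0.15 at day 210 against day 30 (adjusted p = 0.892).

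CD68, or macrosialin, is a lysosomal glycoprotein widely used as a macrophage marker, and the locus that carried its name alone did not behave as an abundant macrophage gene. That locus at chromosome 8, 31659785 to 31663551, had 0.732, 0.172 and 0.396 FPKM at day 30, 0.860, 0.128 and 0.232 FPKM at day 90 and 0.215, 0.856 and 0.236 FPKM at day 210. It was below the minimum for testing, and its neighbours in the deposited table are not those of CD68 in RefSeq, where the gene stands beside EIF4A1 and MPDU1. A merged locus on chromosome 12, 14190408 to 14204961, holds CD68 together with EIF4A1, a translation initiation helicase, and MPDU1. It had 40.5, 41.9 and 38.5 FPKM at day 30, 36.9, 31.2 and 31.3 FPKM at day 90 and 41.2, 30.4 and 32.5 FPKM at day 210, and its log2 changes of −0.08, −0.09 and −0.18 had SE of 0.12 each and adjusted p of 0.735, 0.794 and 0.422. How much of it is CD68 cannot be told from the counts. Of the 3 merged loci, 0 were called in any comparison by edgeR, DESeq2 or limma, and 1, the locus with STAB1, had an unadjusted p under 0.05 at day 90 against day 30 and at day 210 against day 90.

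Other genes of uptake were read from a list of 26 partners in the recognition and engulfment of dead cells, of which 18 could be tested. At day 90 against day 30 CD36, DOCK1 and ITGB3 fell and 0 rose, where 4.02% of all tested loci were called lower. At day 210 against day 30 the same genes and PROS1 fell and 0 rose, where 3.7% of all tested loci were called lower. With 1 library left out the first count of falls was 2 to 4 and the second 1 to 3, with 1 without day 30 replicate 1 or 2, day 90 replicate 2 or day 210 replicate 2, and 2 without day 90 replicate 3 or day 210 replicate 1. At day 210 against day 90 edgeR, DESeq2 and limma each called 0 of the 18. An unadjusted p under 0.05 was seen for 4 of them and for 2717 of all 19264 tested loci. The medians of the list were −0.41, 0.01 and −0.33 at day 90 against day 30, day 210 against day 90 and day 210 against day 30. ITGB3, the integrin β3 chain of the vitronectin receptor and of platelets, had 59.5, 32.4 and 40.6 CPM at day 30, 15.4, 11.6 and 14.5 CPM at day 90 and 10.6, 6.39 and 9.37 CPM at day 210. Both later ages lay below day 30 in every library, with log2 changes of −1.68 ± 0.26 (adjusted p = 0.0111) and −2.33 ± 0.26 (adjusted p = 0.00406).

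DOCK1, an exchange factor that drives the cytoskeleton during engulfment, fell by 0.82 ± 0.11 at day 90 against day 30 (edgeR adjusted p = 0.00867) and by 0.53 ± 0.11 at day 210 against day 30 (adjusted p = 0.0295) on the log2 scale. The second call was lost in 5 of 9 fits with 1 library left out, those without day 30 replicate 1 or 2, day 90 replicate 2 or day 210 replicate 1 or 2, at adjusted p up to 0.108. CD36, a scavenger receptor for oxidised lipids that endothelium and platelets also carry, fell by 0.98 ± 0.23 (adjusted p = 0.0403) and 0.97 ± 0.23 (adjusted p = 0.0415) in the same comparisons. Each of the CD36 calls was kept in 2 of 9 fits with 1 library left out, at adjusted p up to 0.134 and 0.12. LRP1, a large endocytic receptor, averaged 53.6, 33.2 and 54.1 FPKM at days 30, 90 and 210 and was not called by edgeR. At day 90 against day 30, where its log2 change was −0.49 ± 0.17 (edgeR adjusted p = 0.13), DESeq2 called it lower (0.0462) and limma did not (0.0506). The complement C1q chains C1QA, C1QB and C1QC, opsonins that macrophages make, averaged 363 to 615 FPKM at each age, and edgeR, DESeq2 and limma called none of them in any comparison.

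Of 15 ligands of CSF1R and macrophage transcription regulators, 13 were tested. By edgeR 0 were called in any comparison, with 3, 3 and 4 at an unadjusted p under 0.05 at day 90 against day 30, day 210 against day 90 and day 210 against day 30. Of all 19264 tested loci 4454, 2717 and 4570 had such a p, DESeq2 called 2424, 801 and 2300, and limma 1720, 122 and 926. Of the 13 genes DESeq2 called 1, 3 and 1, and limma 2, 0 and 0. Those called by DESeq2 were CSF1 at day 90 against day 30 and ID3 at day 210 against day 30, and at day 210 against day 90 they included CEBPB and MAF. SPIC, the factor known in mouse for red pulp macrophages, averaged within 0.18 of the same log2 level between any of the ages (adjusted p from 0.649 to 0.909). Of 20 tested lysosome genes edgeR called 1 at day 210 against day 30, where 6.24% of all tested loci were called. This was GUSB, β-glucuronidase, which fell by 0.63 ± 0.14 on the log2 scale (adjusted p = 0.0353). The call was kept in 2 of 9 fits with 1 library left out, at adjusted p up to 0.105. In that comparison DESeq2 called 3, CTSL, GUSB and PSAP, and limma 0. In the other comparisons edgeR called 0 lysosome genes, with 2 at an unadjusted p under 0.05 in each, while DESeq2 called 2 and 1 and limma 1 and 0.

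**Figure D4:**
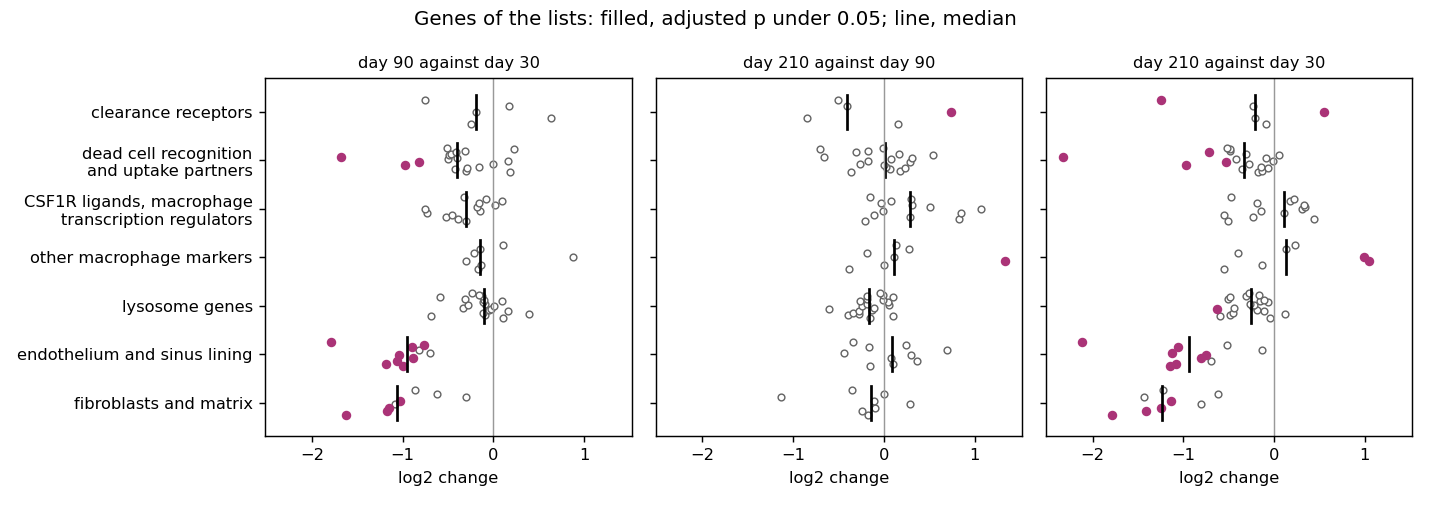
Fitted log2 change (horizontal axes) of each tested gene of 7 lists (rows) in the 3 comparisons of ages, the later age over the earlier. Filled points had an adjusted p under 0.05 and vertical lines are the medians of a list, and the lists of endothelium and of fibroblasts lie to the left of 0 in both comparisons with day 30.

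Markers of macrophages other than the receptors were set beside these results. Of 14 such markers 9 were matched and 7 tested, since VSIG4 and FCGR1A lay below the minimum in level and CD14 was among those not matched. Of all tested loci 0.348% were called higher at day 210 against day 90 and 2.55% at day 210 against day 30. CD163, the scavenger receptor for haemoglobin, had 278, 339 and 242 CPM at day 30, 242, 250 and 206 CPM at day 90 and 632, 690 and 447 CPM at day 210. All libraries of day 210 lay above the rest, and CD163 rose with a log2 change of 1.34 ± 0.19 at day 210 against day 90 (edgeR adjusted p = 0.0272) and 1.04 ± 0.19 at day 210 against day 30 (adjusted p = 0.0177). The first of these calls was lost without any one of the 3 day 90 libraries or without day 210 replicate 1 or 2, at adjusted p up to 0.118, and the second without day 30 replicate 1 or day 210 replicate 2, at adjusted p up to 0.0614. CD5L, a protein that macrophages secrete, rose at day 210 against day 30 by 0.99 ± 0.23 (adjusted p = 0.0374), a call kept in 3 of 9 fits with 1 library left out, at adjusted p up to 0.112. By edgeR no other tested marker was called in any comparison, though DESeq2 also called CD5L at day 90 against day 30, and the list's medians were −0.15, 0.12 and 0.13.

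MERTK changed in the same direction as CD163 at day 210, with smaller fitted changes. Relative to CD163 in the same library, MERTK stood at 8.37%, 8.46% and 11.6% in the libraries of day 30, 9.67%, 9.21% and 11.4% in those of day 90 and 6.97%, 5.45% and 7.86% in those of day 210, in FPKM. The 3 shares of day 210 lay below all 6 of the earlier ages. Against the summed FPKM of the 9 matched macrophage markers MERTK was 2.82% ± 0.38 at day 30, 2.55% ± 0.09 at day 90 and 2.98% ± 0.59 at day 210 (SD, n = 3 each), and on that scale the ages overlapped. Since CD163 is itself part of this sum, the sum also moved, with 209 to 212 FPKM at day 30, 155 to 210 FPKM at day 90 and 197 to 347 FPKM at day 210.

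SIGLEC1 and MARCO departed further from CD163. SIGLEC1 stood at 87.4%, 40.6% and 47.4% of CD163 in the libraries of day 30, 32.9%, 40.5% and 55.0% in those of day 90 and 10.8%, 7.39% and 19.8% in those of day 210. MARCO stood at 78.3%, 36.7% and 83.3% at day 30, at 120.0% in the first and second and 125.0% in the third library of day 90, and at 21.9%, 22.8% and 38.9% at day 210. For SIGLEC1 the libraries of day 210 lay below all 6 earlier ones, and for MARCO the libraries of day 90 lay above all others. CD163 itself rose at day 210, which lowers every share of it at that age. Against the summed macrophage markers SIGLEC1 overlapped between days 90 and 210, with 8.76% in day 90 replicate 1 and 9.1% in day 210 replicate 3. On that scale MARCO at day 90, 28.7% to 31.9%, still lay above all other libraries. SIGLEC1 over MERTK was 6.45 ± 3.48 at day 30, 4.2 ± 0.73 at day 90 and 1.81 ± 0.63 at day 210 (SD, n = 3 each), and the highest ratio of day 210, 2.52, was below the lowest of the earlier ages, 3.40. This ratio sets the member called lower at day 210 over the one called higher. It restates those changes and is not separate evidence.

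**Figure D5:**
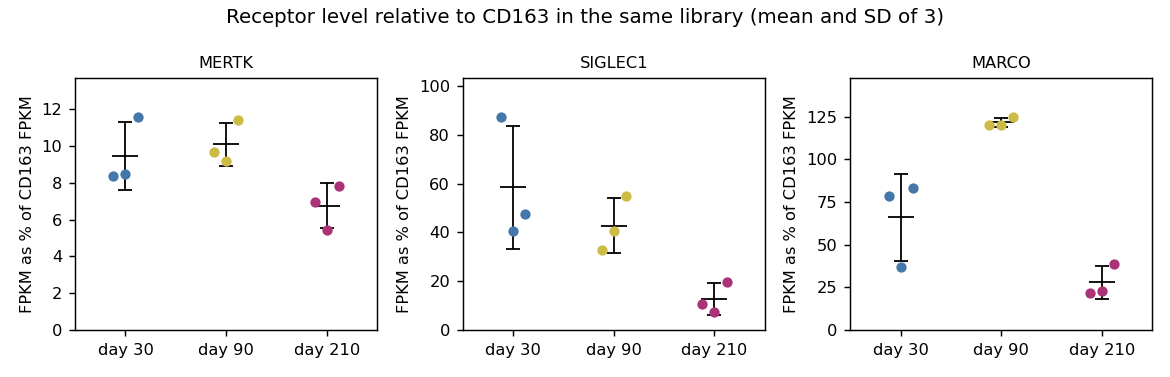
FPKM of MERTK, SIGLEC1 and MARCO as a percentage of the FPKM of CD163 in the same library (vertical axes, linear from 0), by postnatal age (horizontal axes). Points are libraries and bars the mean and SD, and all 3 receptors have their lowest mean share at day 210, where CD163 itself was highest.

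Markers of other cell types of the spleen also differed between the ages. Of all tested loci 4.02% were called lower at day 90 against day 30 and 3.7% at day 210 against day 30. Of 10 endothelial markers 8 fell at day 90 against day 30 and 7 at day 210 against day 30, with medians of −0.95 and −0.93, and their summed level was 52.9 to 55.8 FPKM at day 90 and 59.2 to 75.4 FPKM at day 210, against 122 to 136 FPKM at day 30. The first count was 5 without day 30 replicate 2 or day 90 replicate 1, and the second was 4 without day 30 replicate 2 or day 210 replicate 2. Of 8 fibroblast markers 4 fell in each of these comparisons, and the sum was 59.7 to 79.5 FPKM at day 90 and 54.5 to 103 FPKM at day 210, against 158 to 212 FPKM at day 30. For fibroblasts the first count was 2 without day 30 replicate 1 or 2 or day 90 replicate 1 or 2, and the second was 2 without day 30 replicate 2 or day 210 replicate 2. Of 8 erythroid markers 7 fell at day 90 and 8 at day 210, and the sum was 9.11 to 22.1 FPKM at day 90 and 6.27 to 14.8 FPKM at day 210, against 75.7 to 168 FPKM at day 30. VWF, which endothelium and megakaryocytes make, had log2 changes of −1.79 ± 0.19 (adjusted p = 0.00586) and −2.12 ± 0.19 (adjusted p = 0.00234) in these comparisons. The part of these cells in the falls of SIGLEC1, PROS1, ITGB3 and CD36 was not tested.

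Markers of B cells and T cells, cells of the labelled tissue that are not particular to it, were present at all ages. Of all tested loci 2.06% were called higher and 4.02% lower at day 90 against day 30. The shares were 0.348% higher and 0.187% lower at day 210 against day 90, and 2.55% higher and 3.7% lower at day 210 against day 30. Of 4 B cell markers 3 (CD79B, MS4A1 and PAX5) rose at day 90 against day 30, with PAX5 lost in 5 of 9 fits with 1 library left out, and 1, CD79B, fell at day 210 against day 90, with sums of 46.1 to 63.7 FPKM at day 30, 82.6 to 95.7 FPKM at day 90 and 44.0 to 49.9 FPKM at day 210. Of 5 T cell markers CD3D and CD3E rose at day 210 against day 30, with sums of 79.4 to 94.4 FPKM at day 210 against 55.3 to 58.8 FPKM at day 30. The call of CD3D was lost without any one of the 3 day 30 libraries or without day 210 replicate 2, at adjusted p up to 0.0944, and that of CD3E without day 30 replicate 2 (0.0547), and limma called CD3E alone. Of 7 dendritic cell markers FLT3, XCR1 and ZBTB46 fell at day 210 against day 30, with sums of 24.4 to 27.9 FPKM against 47.2 to 64.5 FPKM, and CD1A rose at day 90 against day 30 and fell at day 210 against day 90. With 1 library left out FLT3 was kept in 9 of 9 fits, XCR1 in 8 (0.0562 without day 210 replicate 2) and ZBTB46 in 2, those without day 90 replicate 1 or day 210 replicate 3, at adjusted p up to 0.118. The rise of CD1A was lost without day 90 replicate 1 (0.05), and its fall was kept only without day 30 replicate 1 or 3, at adjusted p up to 0.133. At these comparisons limma called FLT3, XCR1 and the rise of CD1A, but neither ZBTB46 nor the fall of CD1A. Of 3 tested neutrophil markers S100A12 fell at day 90 against day 30, a call lost without day 30 replicate 1 or any one of the day 90 libraries, at adjusted p up to 0.0695. Whether these shifts bear on the rise of MERTK at day 210 was not tested.

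Circular RNAs gave a second readout of the same loci, by reads that span the junction of a circle. Of 18908 deposited circular RNAs 13 came from the receptor loci, with 32 of 116963 junction reads, and none of the 13 was seen in more than 3 of the 9 libraries. Among them ciRNA351 of MERTK and ciRNA162 of SIGLEC1, with 4 reads each, were typed as ciRNA and the rest as circRNA. MERTK gave 5 of them with 16 reads, 3 at day 30, 10 at day 90 and 3 at day 210, beside 15577, 12537 and 20892 counts of the whole locus at these ages. SIGLEC1 gave 3 with 7 reads, of which 3 were in day 30 replicate 1 and 4 in day 30 replicate 2, the libraries with its highest linear counts. The merged locus of AXL gave 5 reads, CSF1R 2, MRC1 1 and the merged locus of STAB1 1. These counts are too few to compare ages, and a count of 0 in a library allows up to 3 reads.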

How the data were processed

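Libraries of spleen RNA, 3 per age, were grouped by the postnatal day in the labels. Per the labels' protocols RNA was extracted with Trizol and paired-end libraries were made, and the protocol speaks both of poly(A) selection and of a fraction without poly(A), and of adipose tissue. Per the submitters' processing notes HISAT2 2.0, StringTie 1.3.0 and Bowtie 0.12.2 were used. The sources used here do not name the counting tool, the caller of circRNAs or the strand setting, so reads of overlapping antisense genes cannot be told apart. The deposited gene table holds raw read counts and FPKM per locus, and the deposited circRNA table holds junction read counts and a scaled signal (SRPBM), which was not used.

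A mean of 1 FPKM or more was required (19264 of 28095 loci), and counts were fitted in R 4.3.3 by edgeR 4.0.16 (quasi-likelihood, TMM factors of 0.937 to 1.073, 1 mean per age over all 9 libraries, two-sided, Benjamini-Hochberg). SE was computed as the log2 change divided by √F. Common biological variation was 27.3% (coefficient of variation). Replicates differed by more than sampling noise (median chi-square per gene 5.27 to 16.7), so none is a copy. Alternatives were DESeq2 1.42.0, limma 3.58.1 on log2(FPKM + 1), RLE factors, other filters, only the ages compared, a replicate block and leaving out each library.

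Names come from the deposited descriptions, and 114 of 149 list symbols matched a locus with that name alone. The members and lists were chosen with earlier results of these data known. Named genes were all members, per comparison and list the 3 genes of smallest unadjusted p and a fixed panel (GAS6, PROS1, CSF1, IL34, CD163, VSIG4, CD14, CDH5 and PDGFRA), and values are printed for part of them. CD14 and CDH5 were not matched. One gene of the list of transcription regulators is counted with its list and its values are not reported here.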

Additional observations from a re-analysis of the deposited data

How the results depend on the processing

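The log2 changes of the receptors kept their direction in all settings for MERTK, SIGLEC1, MARCO and the locus with AXL, and the exceptions were small changes near 0. These were MRC1 at day 90 against day 30 (−0.087 without day 30 replicate 3) and at day 210 against day 30 (0.024 without day 30 replicate 2), and CSF1R at day 210 against day 30 (0.026 with a minimum mean of 5 FPKM and 0.058 without day 30 replicate 1). With 1 library left out MRC1 ran from −0.087 to 0.437 and from −0.60 to 0.024 in these comparisons, CSF1R from −0.25 to 0.058 and the locus with STAB1 from −0.107 to 0.161 at day 210 against day 30. The others were the locus with STAB1 at day 210 against day 30 (−0.014 with limma, and −0.0024, −0.0037 and −0.107 without day 30 replicate 2, day 30 replicate 3 and day 210 replicate 3) and the merged CD68 locus at day 210 against day 90 (0.056 with limma). Of the 5 tested receptors, DESeq2 called 1 and limma 1 at day 90 against day 30. At day 210 against day 90 DESeq2 called 2, and 0 were called with limma, with no filter on low values or with only the ages compared. At day 210 against day 30 limma and no filter called 1 each, and 0 were called with only the ages compared. Leaving out 1 library gave 0 to 1 calls at day 210 against day 90 and 0 to 2 at day 210 against day 30, and 0 at day 90 against day 30. Over all loci the calls numbered 1171, 103 and 1203 at day 90 against day 30, day 210 against day 90 and day 210 against day 30. They were 2424, 801 and 2300 with DESeq2, 404, 58 and 494 with a minimum of 5 FPKM (5427 loci tested), 66 at day 210 against day 90 with no filter, and 499 at day 210 against day 30 with only both ages compared. Leaving out 1 library gave 280 to 1556, 7 to 139 and 342 to 1053. The FPKM scale moved the median of all loci by −0.15, 0.11 and −0.04, and limma on it called 127 of 1720, 108 of 122 and 212 of 926 loci higher, where edgeR called 396 of 1171, 67 of 103 and 491 of 1203 higher. Relative to day 30 replicate 1, FPKM per unscaled CPM was 0.972 and 0.983 in the other day 30 libraries. It was 0.976, 0.852 and 0.824 at day 90 and 1.0, 0.94 and 0.91 at day 210, nearly the same for all loci. The causes were not tested.

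No pairing by replicate number was seen, as deviations from the age mean correlated at −0.069 to 0.099 between same-numbered libraries and at −0.122 to 0.122 between the others. With 3 libraries per age these correlations cannot exclude a shared origin of same-numbered libraries. With a replicate block 0 receptors were called at day 210 against day 90 and 0 at day 210 against day 30, and 582, 43 and 531 loci were called in the 3 comparisons. Low counts limit the locus with the name CD68 alone, at 17 to 70 counts in the day 30 libraries, and the circRNAs. That locus did not have the neighbours of CD68 in RefSeq, and the abundant merged locus with CD68 cannot be split.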
